A study of Schizosaccharomyces pombe with 9 samples.

Results

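Of the 5129 genes counted in fission yeast RNA, 149 (2.91%) had at least 1 read count over the 9 libraries but reached 10 counts in fewer than 3 of them. These 149 low-count genes were chosen by their counts alone, so their low level is the rule and not a result. A further 66 genes had no count in any library, and the other 4914 genes had more. The low-count genes held 3318 of 63031679 counts (0.00526%). Their summed count over the 9 libraries lay between 1 and 92, with a median of 15, against a median of 4880 for the other genes with a count.

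Poly(A)-selected RNA was read from 3 genotypes of Schizosaccharomyces pombe with 3 replicates each, from cultures in mid-logarithmic growth in YES, a rich medium. The tra1-AA cells carry an allele of tra1 whose change the labels do not describe, the tra1D cells lack tra1, and the wild-type (WT) cells carry it. Each genotype bears a single strain number, and whether the replicates were separate cultures is not stated, so the spread behind every p-value may be technical. The titles mark the tra1D and WT libraries as a re-analysis but not the tra1-AA libraries, so any difference of origin cannot be told apart from the tra1-AA genotype. Tra1 is a pseudokinase subunit of SAGA, a co-activator complex that helps transcription factors start transcription at many yeast genes. In tra1D libraries tra1 had 5, 2 and 2 counts, in tra1-AA libraries 608, 570 and 470, and in WT libraries 771, 704 and 561.

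Fission yeast keeps a large set of genes at low RNA levels while it divides mitotically. Genes of meiosis and spore formation are switched on after starvation, first by the HMG-box factor Ste11 and later by the forkhead factor Mei4, and many of their stray transcripts are destroyed in growing cells by a pathway led by the RNA-binding protein Mmi1. Genes beside the telomeres lie in repressed chromatin, and some exist in near-identical copies, which short reads cannot tell apart. Thiamine in the medium represses nmt1, and flocculin genes are off in most laboratory cultures. Both the meiotic and the chromosome-end groups were found among the low-count genes.

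The label of these genes as nearly silent was checked against genes that every cell uses. ost5 (SPCC18.19c), a subunit of the oligosaccharyltransferase complex, had 5, 2 and 2 counts in tra1-AA, 8, 6 and 4 in tra1D and 6, 1 and 6 in WT. Another gene of the same strand overlaps 10.6% of it. gna1 and mzt1, which encode a glucosamine-phosphate acetyltransferase and a spindle organizing protein, were listed at 0 in all 9 libraries, as were coa3 and sfc7. A gene with few counts was therefore not shown to be silent, and the 149 genes are called low-count genes here. At this depth (5738138 to 8101004 counts per library) a single count equals 0.123 to 0.174 CPM, a unit that sets every library to the same total. A library with 0 counts of a gene allows a level of up to 0.37 to 0.523 CPM (3 counts). These limits and all counting intervals below cover counting error only.

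Within the low-count genes most were very rare. Summed counts of 1 to 5 were seen in 42 genes, 6 to 19 in 44, 20 to 49 in 41 and 50 to 99 in 22. A count was present in all 9 libraries for 38 genes and in 1 library for 16. No library reached 10 counts for 119 genes, 1 library did so for 18 and 2 did so for 12. The 20 genes with the largest sums held 1279 counts (38.5%). Per length of the annotated transcript, the median level was 0.254 RPKM (counts per kilobase, scaled by library totals as CPM is), against 42.3 RPKM for the other genes with a count. The highest level, 5.15 RPKM, belonged to SPBC713.14c, a short gene of undescribed function.

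The cut was not a gap in the data. spn6, SPBC1289.14, SPBC713.14c and SPBPB2B2.08 lay just inside it, with a third-highest library count of 9, followed by SPCC569.04 with 8. mei3, SPAC8E11.08c, meu27 and wtf6 lay just outside with 10, followed by SPBPB10D8.04c with 11. mei3, an inducer of meiosis that inhibits the kinase Pat1, had 11, 13 and 7 counts in tra1-AA, 10, 4 and 7 in tra1D and 4, 2 and 1 in WT.

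Genes on 4 meiosis lists made up 30 of the 149 and are called meiotic here, although fzr3, annotated as a meiotic coactivator, is on none. They came from lists of meiotic regulators (9 of 24 list genes were low-count genes), meiotic recombination and chromosome axis (5 of 27), forespore membrane and spore wall (1 of 29) and genes named mug or meu for their rise in meiosis (16 of 110), with mug28 on a pair of lists. Upstream of many of them lies the heptamer GTAAACA, the core of the sites bound by Mei4. It was searched on both strands from 250 bases before to 50 bases after the annotated gene start. The windows of 39 bases below show 9 meiotic low-count genes, with the core (or its reverse complement TGTTTAC) in capitals, 5′ to 3′ on the gene's own strand, from the RefSeq assembly ASM294v3. They were chosen because their products act at several steps of meiosis, from recombination to the second division.
mug28: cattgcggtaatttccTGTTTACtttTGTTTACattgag
rec7: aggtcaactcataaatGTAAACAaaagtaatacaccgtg
mde2: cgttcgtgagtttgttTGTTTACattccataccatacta
bqt2: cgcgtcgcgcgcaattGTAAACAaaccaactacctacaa
rem1: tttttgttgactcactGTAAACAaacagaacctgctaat
moa1: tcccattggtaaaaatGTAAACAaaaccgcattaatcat
mde3: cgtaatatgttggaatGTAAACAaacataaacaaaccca
mfr1: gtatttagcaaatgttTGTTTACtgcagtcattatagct
spo4: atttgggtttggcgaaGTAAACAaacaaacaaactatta

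In ASM294v3 these windows are chrI:1650935-1650973 (mug28, plus strand), chrIII:1549143-1549181 (rec7, minus), chrII:3764710-3764748 (mde2, plus), chrI:1807796-1807834 (bqt2, minus), chrII:1954873-1954911 (rem1, minus), chrI:3729073-3729111 (moa1, minus), chrII:1393362-1393400 (mde3, plus), chrII:194458-194496 (mfr1, plus) and chrII:3827064-3827102 (spo4, plus). The first base of the core lay 61 bases before the gene start in mug28 (position -61), at -96 in rec7, -94 in mde2, -37 in bqt2, -183 in rem1, -61 in moa1, -76 in mde3, -204 in mfr1 and -98 in spo4. mug28 carried the core at 2 places in this window.

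The Mei4 core was present in the windows of 18 of the 30 meiotic low-count genes (60%). It was present in 14 of 117 other annotated low-count genes (12%), in 64 of 151 list genes with more counts (42.4%) and in 841 of all 5113 annotated genes (16.4%). TTCTTTG, the core of the sites bound by Ste11, was found in 6.67% of the meiotic low-count genes, 11.1% of the other low-count genes and 9.94% of all genes. The CRE core TGACGT was found in 6.67%, 11.1% and 5.93% of these classes, and TATAAA in 63.3%, 41.9% and 48.1%. None of the 4 motifs contains another, and both strands were read for each. The hexamers TTAAAC and TCAAAC, around which Mmi1 binds RNA, occurred in the annotated transcripts of 20 of the 30 meiotic low-count genes (66.7%), 121 of the 151 list genes with more counts (80.1%) and 70.8% of all genes. Longer transcripts have more room for them. Per kilobase the median was 0.852 in the meiotic low-count genes, 0 in the other low-count genes, 0.972 in the list genes with more counts and 0.724 in all genes. A match is a run of letters and not a shown binding site.

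**Figure D1:**
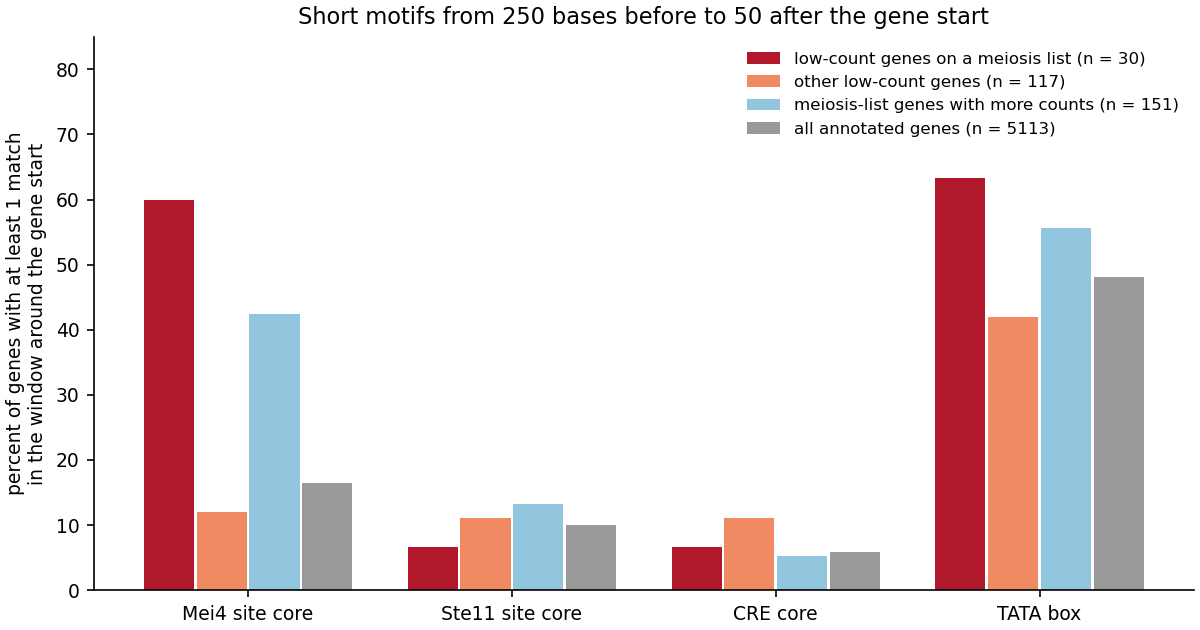
Share of genes (percent, vertical axis) with at least 1 match to 4 short motifs around the gene start, for low-count genes on a meiosis list, other low-count genes, meiosis-list genes with more counts and all annotated genes. The Mei4 core stands at 60% in the meiotic low-count genes and at 12% to 42.4% in the other classes.

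The regulators themselves were outside the low-count genes. mei4 had 49, 49 and 62 counts in tra1-AA, 34, 68 and 39 in tra1D and 78, 40 and 66 in WT. ste11 had 271, 317 and 279 counts in tra1-AA, 350, 344 and 345 in tra1D and 174, 151 and 172 in WT. For Mmi1, the counts were 668, 750 and 700 in tra1-AA, 734, 794 and 607 in tra1D and 851, 874 and 746 in WT. In these raw counts ste11 was higher in every mutant library than in any WT library.

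Among the low-count meiotic regulators, mug28 (SPAC343.07), an RNA-binding protein of late meiosis, had the most counts. It had 4, 2 and 8 counts in tra1-AA, 1, 10 and 7 in tra1D and 7, 5 and 9 in WT, so the 3 genotypes overlapped. atf21, a bZIP factor related to Atf1, had 5, 3 and 4 counts in tra1-AA, 8, 4 and 6 in tra1D and 2, 0 and 4 in WT. mde2, needed for meiotic double-strand breaks, had 5, 1 and 3 counts in tra1-AA, 2, 0 and 1 in tra1D and 4, 3 and 2 in WT. mde3, a protein kinase, had 2, 1 and 2 counts in tra1-AA, 0, 0 and 3 in tra1D and 1, 0 and 3 in WT. mfr1, an activator of the anaphase-promoting complex in meiosis, had 3, 1 and 2 counts in tra1-AA, 0, 0 and 1 in tra1D and 1, 2 and 3 in WT. For each of these genes but mde2 libraries of every genotype overlapped. In mde2 tra1-AA overlapped with both, while tra1D met WT only in a raw tie at 2 counts. Scaled by library totals, all tra1D libraries of mde2 lay below all WT libraries, and it did not pass (edgeR, BH-adjusted p = 0.372). The lowest regulators were spo4, a kinase needed for the second meiotic division, with 5 counts in all, and cuf2, a transcription factor of meiosis, with a single count in each of tra1D replicate 3 and WT replicates 1 and 2.

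The recombination genes were as rare. rec27, a component of the linear elements on meiotic chromosomes, had 6, 3 and 1 counts in tra1-AA, 4, 8 and 6 in tra1D and 1, 4 and 9 in WT. rec7, needed for meiotic double-strand breaks, had 7, 2 and 1 counts in tra1-AA, 1, 4 and 4 in tra1D and 7, 8 and 3 in WT. rec15, a partner of rec7, had 3, 0 and 1 counts in tra1-AA, 2, 0 and 0 in tra1D and 3, 3 and 2 in WT. In rec27 and rec7 the genotypes overlapped. In rec15 tra1-AA overlapped with both, while tra1D met WT only in a raw tie at 2 counts. Scaled by library totals, all tra1D libraries of rec15 lay below all WT libraries, and it did not pass (edgeR, BH-adjusted p = 0.356). bqt2, which ties telomeres to the spindle pole body, had 16 counts in all, and moa1, which keeps sister kinetochores facing the same pole, had 5.

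spn6 (SPCC188.12), a septin of the spore membrane, was one of the pair of low-count genes with the largest sum. It had 9, 8 and 8 counts in tra1-AA, 7, 20 and 17 in tra1D and 9, 8 and 6 in WT. The libraries of tra1D replicates 2 and 3 stood above the other 7, and replicate 1 did not. The log2 fold change of spn6 in tra1D was 1.00 with an SE of 0.42 and missed the threshold (edgeR, BH-adjusted p = 0.157). Without tra1D replicate 1 it was 1.33 and passed. Another gene on the opposite strand overlaps 97% of spn6.

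meu15 (SPCPJ732.03), named for its rise in meiosis, had 6, 6 and 12 counts in tra1-AA, 13, 6 and 8 in tra1D and 3, 3 and 1 in WT. Every mutant library stood above every WT library. The ratio of its summed counts, scaled by library totals, was 3.68 for tra1-AA over WT (95% exact conditional interval 1.54 to 10.1) and 4.26 for tra1D over WT (1.81 to 11.6). The log2 fold changes were 1.78 (SE 0.64, edgeR, BH-adjusted p = 0.0809) and 1.97 (SE 0.62, edgeR, BH-adjusted p = 0.064), and neither passed. Scaled by library totals alone, the gene passed in tra1D (edgeR, BH-adjusted p = 0.0487).

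Of all genes tested, 7.7% passed as higher and 7.66% as lower in tra1-AA, and 5% as higher and 6.02% as lower in tra1D. On the meiosis lists, 3 of 24 meiotic regulators passed as higher in tra1-AA than in WT and 0 as lower, and 2 passed as higher in tra1D. For the recombination genes 1 of 27 rose in tra1-AA and 2 rose in tra1D, with 0 lower in either. For the spore genes 0 of 29 rose and 4 fell in tra1-AA, and 2 rose and 2 fell in tra1D. For the mug and meu genes 2 of 109 rose and 9 fell in tra1-AA, and 3 rose and 8 fell in tra1D. The median log2 fold changes of these 4 lists lay between -0.08 and 0.06, near the 0.01 of all genes, and none of the calls fell on a low-count gene.

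Pheromone, transposon and spore-killer families gave further low-count genes. mfm3 (SPBPJ4664.03), 1 of 3 genes for the mating pheromone M-factor, had 2, 6 and 0 counts in tra1-AA, 10, 8 and 7 in tra1D and 8, 8 and 9 in WT. All tra1-AA libraries lay below all tra1D and WT libraries. The log2 fold change of tra1-AA against tra1D was -1.62 and did not pass (edgeR, BH-adjusted p = 1), nor did that against WT, -1.55 (edgeR, BH-adjusted p = 0.137). Of the 13 Tf retrotransposons, 3 were low-count genes, 9 had no count and 1 had more. Tf2-2, a full-length Tf2 element, had 6, 5 and 8 counts in tra1-AA, 10, 7 and 7 in tra1D and 11, 8 and 5 in WT. A copy covers 100% of its coding sequence, so the counts of Tf2-2, Tf2-10 and Tf2-13 are uncertain. Of the 20 wtf genes, which include spore killers and their antidotes, wtf16 and wtf18 were low-count genes, with 17 and 8 counts in tra1-AA, 16 and 13 in tra1D and 18 and 10 in WT. Copies cover 17.7% of the coding sequence of wtf16 and 92.8% of that of wtf18, so these counts are uncertain too.

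The chromosome ends were the other place where low-count genes gathered. Among the 50 outermost genes at each of 6 chromosome ends stood 44 of the 147 low-count genes with a place in the annotation (29.9%), 27 of 54 genes with no count (50%) and 229 of 4913 other genes (4.66%). The left and right ends of chromosome I held 13 and 12 of them, those of chromosome II held 6 and 9, and those of chromosome III held 2 and 2. Some lay in unbroken runs. At the left end of chromosome II a run of 11 genes held 4 low-count genes and 7 with no count. At the right end of chromosome I the run of 7 genes that includes ftm4 held 2 low-count genes and 5 with no count.

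Many of these genes have near-identical copies. A match of at least 98% identity covered at least 10% of the coding sequence in 30 low-count genes (20.4%), 38 genes with no count (70.4%) and 42 other genes (0.855%). At the ends 25 of the 44 low-count genes had such a copy. Over the whole table, 110 genes had one, and their median summed count was 13.5, against 4774 for genes without. How reads that match 2 places were counted is not given in the sources used here, and its part in these low counts was not tested. The counts of the genes with a copy are uncertain. yip12, a subunit of the SMN complex with a copy over 100% of its coding sequence, had 1 count in all, while that copy, yip11, had 172 counts in tra1-AA, 179 in tra1D and 228 in WT. fex1, a fluoride export channel, had 8, 2 and 5 counts in tra1-AA, 4, 2 and 4 in tra1D and 6, 6 and 13 in WT, and fex2 had 110 in tra1-AA, 164 in tra1D and 154 in WT.

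**Figure D2:**
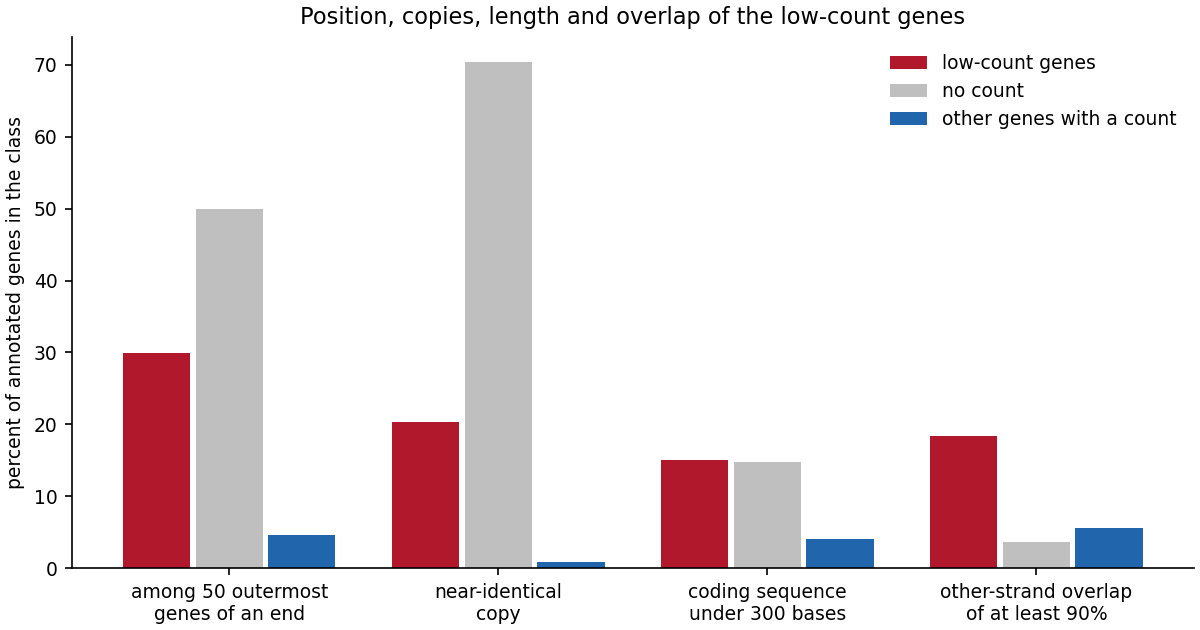
Share of annotated genes (percent, vertical axis) with 4 properties among low-count genes, genes with no count and other genes with a count. The rule used counts not scaled by length, which favours short genes. Chromosome-end position, near-identical copies and coding sequences under 300 bases were more frequent among the low-count genes (29.9%, 20.4% and 15%) than among the other genes (4.66%, 0.855% and 4.01%), and a near-complete overlap with a gene of the opposite strand stood at 18.4% and 5.58%.

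The low-count genes were also short. The rule used counts not scaled by length, so a shorter gene meets it more readily at the same level. Their shortness is thus in part set by the rule. Their median coding length was 570 bases, against 1158 bases for the other genes, and 22 of 147 (15%) had a coding sequence under 300 bases, against 197 of 4913 (4.01%). No intron was annotated in 64.6% of them and in 52.4% of the other genes. A gene of the opposite strand covered at least 90% of 27 low-count genes (18.4%), and of 15 of the 30 meiotic ones (50%), among them mug28, mde2, mde3, mfr1, rec15, rec27 and cuf2, against 274 of 4913 other genes (5.58%). The libraries are stranded, but the strand setting of the counting is not given in the labels or notes. Whether reads of the partners affected the counts of these genes was not tested. All 303 genes with such an overlap had a median summed count of 3511, against 4744 for genes with less or none. Low-count genes made up 8.91% of the former and 2.49% of the latter. Proteins without a described function made up 65 of the low-count genes, which was 17.4% of the 374 genes so annotated.

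Telomere-linked helicase genes showed how uneven the end genes were between replicates. tlh2 had 1, 0 and 7 counts in tra1-AA, 1, 12 and 1 in tra1D and 1, 1 and 2 in WT. tlh1 had 2, 0 and 5 counts in tra1-AA, 0, 7 and 0 in tra1D and 1, 3 and 0 in WT. A copy covers 98.3% and 100% of these genes, and in both the highest count came from tra1D replicate 2. mel1, an alpha-galactosidase gene at the right end of chromosome I, had 0, 1 and 2 counts in tra1-AA, 5, 2 and 10 in tra1D and 3, 0 and 4 in WT. pfl6, the 1 flocculin-family gene of 11 among the low-count genes, had 1, 0 and 4 counts in tra1-AA, 1, 1 and 6 in tra1D and 3, 2 and 2 in WT.

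Rare transcripts of tra1-AA cells were set against those of WT cells. Of the 149 low-count genes, 2 passed the test across all 5063 genes with a count (1.34%), both lower in tra1-AA. Of all genes tested 15.4% passed, and 7.66% passed as lower. DESeq2 called the same number, 2, against 15.9% of all genes. The share among the low-count genes was thus below the background, and their precision was low. The median standard error of their log2 fold change was 1.10, against 0.10 for the other genes. The rule also left out by construction any gene with 10 counts in all 3 libraries of a genotype. At an unadjusted p under 0.05, 16 low-count genes stood out (10.7%), against 30% of all genes. Of these 4 were higher (2.68%), against 16% of all genes, and 12 lower (8.05%), against 14%.

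pdc102 (SPAC186.09), a pyruvate decarboxylase gene 9 genes from the right end of chromosome I, had no count in the 3 tra1-AA libraries, 2, 2 and 1 in tra1D and 9, 8 and 4 in WT. The 3 genotypes did not overlap. Pyruvate decarboxylase makes acetaldehyde from pyruvate in alcoholic fermentation. With no count in tra1-AA, the ratio of scaled sums to WT had an upper bound of 0.206 (95% exact conditional interval), and the gene passed the test (edgeR, BH-adjusted p = 0.00754). In tra1D the log2 fold change of pdc102 was -1.92, with an SE of 0.64, and missed the threshold (edgeR, BH-adjusted p = 0.0857). tra1-AA against tra1D did not pass either (edgeR, BH-adjusted p = 1). The main gene of this family, pdc101, had 147640 counts in tra1-AA, 141566 in tra1D and 165173 in WT.

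The genes on both sides of pdc102 were read next. Its inner neighbours SPAC186.07c and SPAC186.08c, both low-count genes, had no count in tra1-AA, 4 and 3 counts in tra1D replicate 1 with 0 in its other replicates, and 1 and 6 counts in WT, and neither passed in either mutant. The next gene inward, SPAC186.06, an isomerase gene outside the low-count genes, had no count in tra1-AA, 8, 0 and 1 in tra1D and 25, 31 and 14 in WT. gdt1, the next after it, had 3, 3 and 0 counts in tra1-AA, 148, 3 and 5 in tra1D and 723, 643 and 505 in WT. On the outer side SPAC750.01, an aldo/keto reductase gene, had 0, 1 and 1 counts in tra1-AA, 2, 1 and 1 in tra1D and 53, 50 and 52 in WT. All 3 of these better counted neighbours passed as lower in both mutants (edgeR, BH-adjusted p = 0.000432, 0.00441 and 9.35e-06 in tra1-AA and 0.00475, 0.0275 and 1.34e-05 in tra1D for gdt1, SPAC186.06 and SPAC750.01).

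SPAPB1A11.02, an esterase or lipase gene inside chromosome I, had 3, 6 and 2 counts in tra1-AA, 5, 7 and 4 in tra1D and 25, 38 and 2 in WT. WT replicates 1 and 2 stood far above the other 7 libraries, while WT replicate 3 lay at the lowest mutant value. The log2 fold change of tra1-AA against WT was -2.45 (SE 0.75) and passed (edgeR, BH-adjusted p = 0.0451). It was -2.40 without WT replicate 1 (edgeR, BH-adjusted p = 0.114) and -1.78 without WT replicate 2 (edgeR, BH-adjusted p = 0.159), and passed in neither case. It was -2.93 without WT replicate 3 (edgeR, BH-adjusted p = 0.00136), and did not pass without any 1 of the mutant libraries. SPAPB1A11.03, an L-lactate dehydrogenase gene lying 2 genes away, had 0, 1 and 1 counts in tra1-AA, 0, 0 and 1 in tra1D and 3, 5 and 3 in WT, and did not pass (edgeR, BH-adjusted p = 0.137 in tra1-AA and 0.0961 in tra1D). Better counted genes up to 4 places away were mixed. SPAPB24D3.08c, agl1 and SPAPB1A11.05 passed as lower in tra1-AA, at log2 fold changes of -1.19, -1.11 and -2.22. Their adjusted p by edgeR was 2.26e-05, 8.06e-05 and 0.00955. SPAPB24D3.08c and agl1 also passed as lower in tra1D. SPAC31G5.01 passed as higher in tra1-AA only, at a log2 fold change of 0.32 (adjusted p by edgeR 0.0421). The genes pdr1, mfc1 and mca1 passed in neither mutant.

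**Figure D3:**
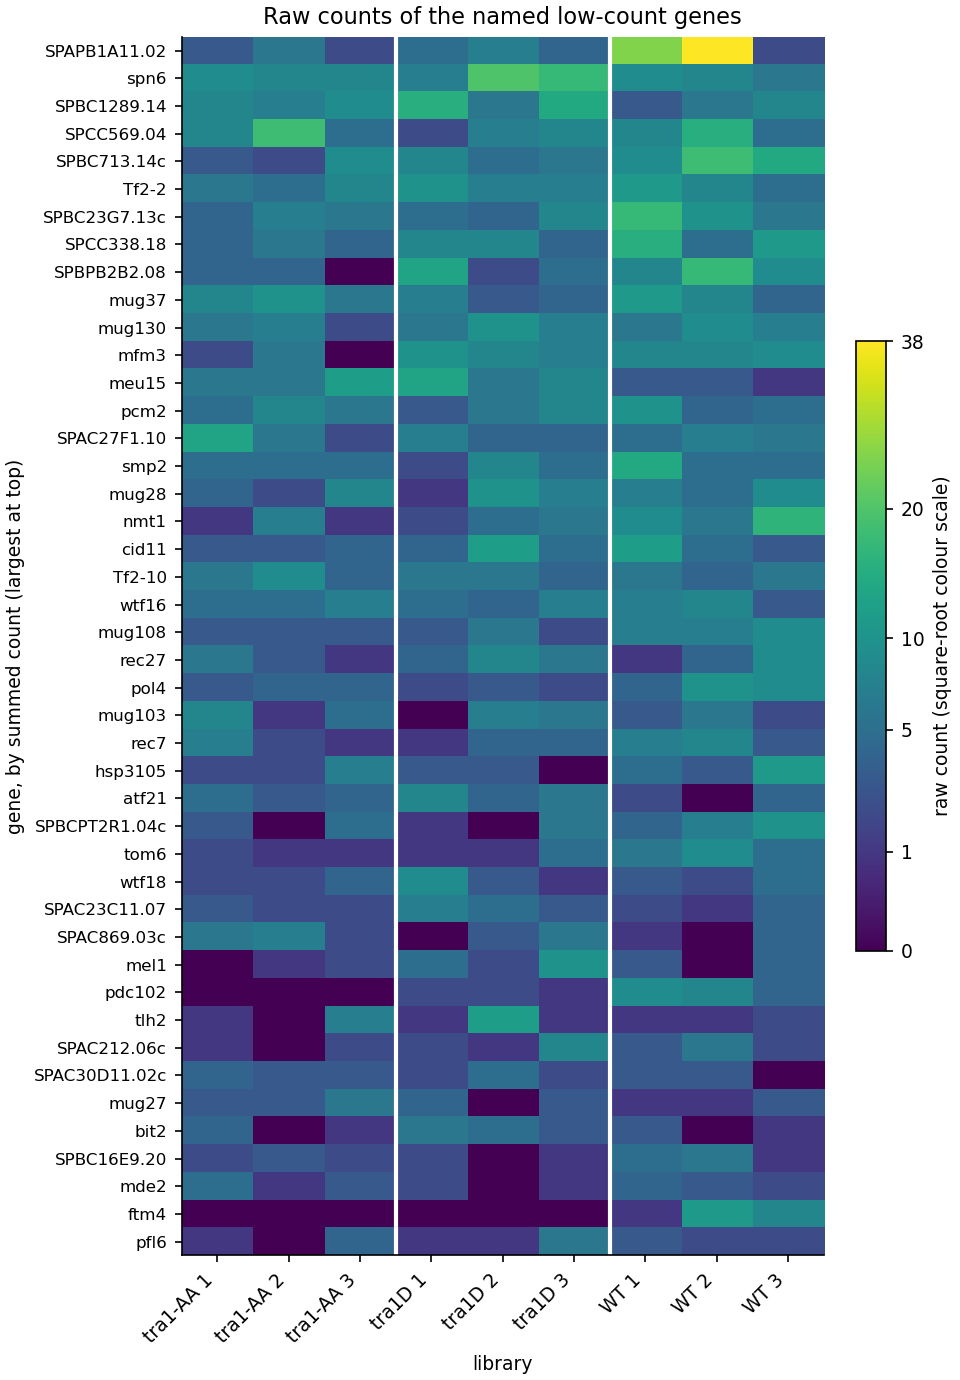
Raw counts (colour, square-root scale from 0 to 38) of the named low-count genes with a summed count of at least 20, one gene per row and one library per column, from tra1-AA through tra1D to WT. SPAPB1A11.02 is brightest in WT replicates 1 and 2, and pdc102 and ftm4 are at 0 in the tra1-AA libraries.

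ftm4 (SPAC750.05c), a membrane-protein gene 4 genes from the right end of chromosome I, had no count in any tra1-AA or tra1D library and 1, 11 and 8 counts in WT. The ratio of scaled sums to WT had an upper bound of 0.217 in tra1-AA and 0.224 in tra1D (95% exact conditional intervals). The test did not pass in tra1-AA (edgeR, BH-adjusted p = 0.0616) or in tra1D (edgeR, BH-adjusted p = 0.0744). With the replicate number as a block the adjusted p by edgeR was 0.0498 for tra1-AA, which passed, and 0.0622 for tra1D, which did not. Without WT replicate 1 it passed in both (edgeR, BH-adjusted p = 0.029 in tra1-AA and 0.0342 in tra1D). A copy covers 99.8% of its coding sequence, so its counts are uncertain. SPAC2H10.04, of undescribed function, likewise had no count in the mutants and 4, 3 and 1 counts in WT (edgeR, BH-adjusted p = 0.0949 in tra1-AA and 0.115 in tra1D).

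Several single-copy genes were lower in the tra1-AA libraries without passing. The gene named tom6 in the reference, whose product it leaves uncharacterized, had 2, 1 and 1 counts in tra1-AA, 1, 1 and 5 in tra1D and 6, 9 and 5 in WT (edgeR, BH-adjusted p = 0.0757 in tra1-AA), and passed in tra1-AA when tra1D replicate 3 was left out. nmt1 (SPCC1223.02), an enzyme of thiamine synthesis, had 1, 7 and 1 counts in tra1-AA, 2, 5 and 6 in tra1D and 9, 6 and 16 in WT (edgeR, BH-adjusted p = 0.134 in tra1-AA). pol4 encodes a DNA polymerase of the X family. It had 3, 4 and 4 counts in tra1-AA, 2, 3 and 2 in tra1D and 4, 10 and 9 in WT (edgeR, BH-adjusted p = 0.239 in tra1-AA and 0.107 in tra1D). The counts of tom6 in tra1-AA and of pol4 in tra1D lay below those of every WT library. Those of nmt1 overlapped with WT, as did those of pol4 in tra1-AA.

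A few genes were counted in the mutants and not in WT. SPAC186.02c, a hydroxyacid dehydrogenase gene 16 genes from the right end of chromosome I, had 0, 7 and 2 counts in tra1-AA, 1, 3 and 2 in tra1D and 0 in every WT library (edgeR, BH-adjusted p = 0.112 in tra1-AA), and passed in tra1-AA when tra1-AA replicate 1 was left out. shu1, a cell-surface protein of haem uptake, had 1, 3 and 1 counts in tra1-AA, 3, 1 and 1 in tra1D and 0 in every WT library (edgeR, BH-adjusted p = 0.130 in tra1-AA and 0.151 in tra1D). In all, 7 low-count genes had a count in both mutants and none in WT, with sums of at most 15, and 11 had counts in WT alone, with sums of at most 20. Counts in tra1-AA alone were seen in 8 genes and in tra1D alone in 6. A count was present in all 3 genotypes for 100 genes.

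Cells without Tra1 gave no such call. None of the 149 low-count genes passed (0 of 149, edgeR, against 11% of all genes), and DESeq2 likewise called 0 against 12.1% of all genes. At an unadjusted p under 0.05, 13 stood out (8.72%), against 26% of all genes. Of these 4 were higher (2.68%), against 13.1%, and 9 lower (6.04%), against 12.9%. The comparison of tra1-AA with tra1D called 0 low-count genes by edgeR and by DESeq2, against 0.0395% and 0.079% of all genes. There 4 low-count genes (2.68%) stood at an unadjusted p under 0.05, against 3.79% of all genes. Both mutants were set against the same WT libraries. For tra1-AA, the authors' deposited table gave an adjusted p to 143 low-count genes, of which 2 were under 0.05, both lower, against 12.4% of all genes. For tra1D, the authors' deposited table had 0 of 141 under 0.05, against 11.3% of all genes.

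**Figure D4:**
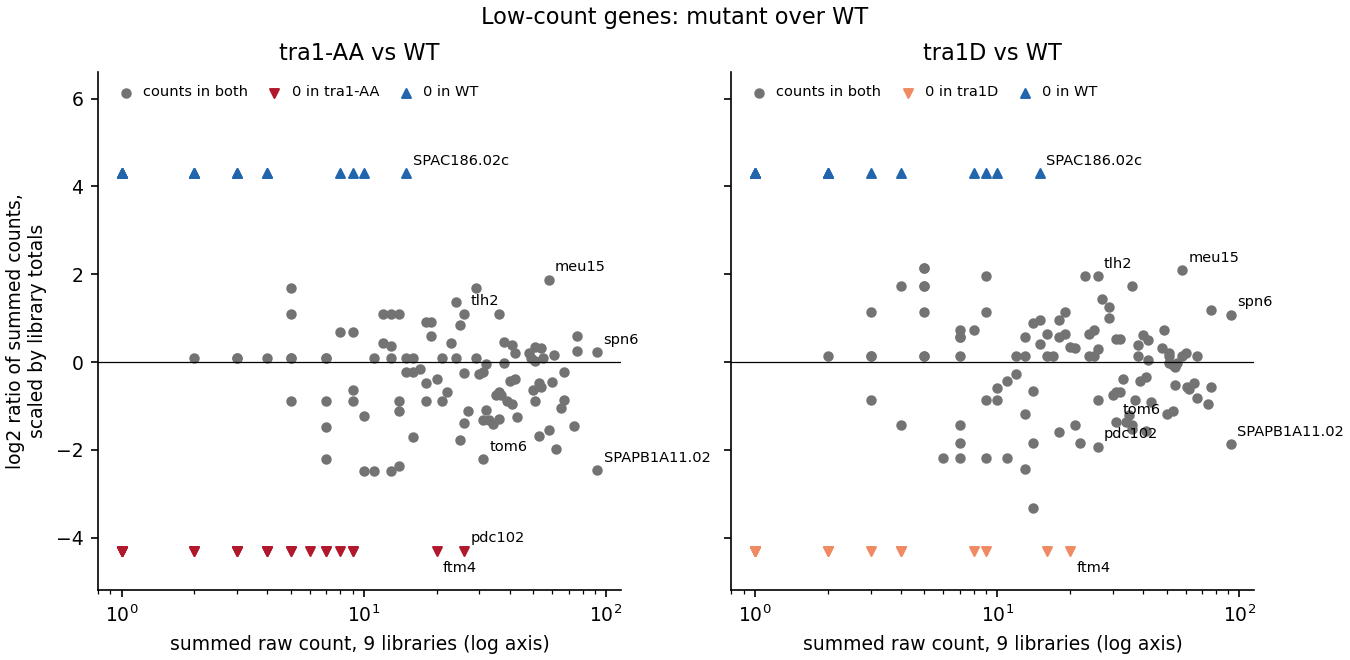
Log2 ratio of summed counts, scaled by library totals (vertical axis), against the summed raw count over the 9 libraries (log axis) for the 149 low-count genes, in tra1-AA against WT (left) and tra1D against WT (right). Triangles at the upper and lower edge are genes at 0 in WT or in the mutant, for which no ratio was taken. The 2 genes that passed, pdc102 and SPAPB1A11.02, lie at the lower edge and at the lower right of the left panel.

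As a sum, the low-count genes took a smaller part of the tra1-AA libraries than of the WT libraries. They had 327, 287 and 300 counts in tra1-AA, 337, 373 and 360 in tra1D and 463, 474 and 397 in WT. Scaled by library totals these were 44.3 ± 4.88 CPM in tra1-AA, 53.8 ± 7.89 in tra1D and 60.3 ± 3.42 in WT (SD, n = 3 each). All tra1-AA libraries lay below all WT libraries, while the tra1D libraries overlapped both. The ratio of tra1-AA to WT was 0.735 (95% exact conditional interval 0.675 to 0.8), that of tra1D to WT 0.887 (0.817 to 0.962) and that of tra1-AA to tra1D 0.829 (0.758 to 0.907). These intervals cover counting error only and leave out the spread between replicates, so an interval that excludes 1 is not a test. Since the genes were chosen on these counts, no test was made of the sums.

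The lower sum in tra1-AA was not shared by every gene. By scaled sums 81 low-count genes were lower and 62 higher in tra1-AA than in WT, so 54.4% were lower, against 40.5% of all genes with a count. In tra1D 66 were lower and 75 higher than in WT, so 44.3% were lower, against 35% of all genes. Against tra1D, 89 were lower and 49 higher in tra1-AA (59.7% lower, against 58.9% of all genes). With genes at 0 in a group set to the limit of 3 counts, and those without more than 3 counts in the other group left out, the median log2 ratio was -0.22 over 115 genes in tra1-AA, against 0.05 for all genes. It was 0.14 over 121 genes in tra1D, against 0.08 for all genes. The 2 genes that passed held part of the difference. Without them the ratio of tra1-AA to WT was 0.777 (0.712 to 0.847) and that of tra1D to WT 0.929 (0.855 to 1.01).

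The summed meiotic genes lay close to WT in both mutants. The difference between them and the other low-count genes was not tested. Both genes that passed, pdc102 and SPAPB1A11.02, are among the others. The 30 meiotic low-count genes had 104, 72 and 83 counts in tra1-AA, 82, 102 and 99 in tra1D and 93, 98 and 88 in WT. Their ratio to WT was 0.996 in tra1-AA (0.838 to 1.184) and 1.12 in tra1D (0.947 to 1.33), and the libraries of the 3 genotypes overlapped. The 119 other low-count genes had 223, 215 and 217 counts in tra1-AA, 255, 271 and 261 in tra1D and 370, 376 and 309 in WT. Their ratio was 0.666 in tra1-AA (0.603 to 0.735) and 0.825 in tra1D (0.751 to 0.905), and all WT libraries stood above all mutant libraries after scaling.

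The chromosome-end genes and the others were both lower in sum in tra1-AA, and the difference between the classes was not tested. The 44 end genes had 55, 70 and 70 counts in tra1-AA, 73, 77 and 106 in tra1D and 91, 115 and 100 in WT, with a ratio to WT of 0.684 in tra1-AA (0.569 to 0.821) and 0.925 in tra1D (0.78 to 1.1). The 103 genes away from the ends had 271, 215 and 229 counts in tra1-AA, 262, 293 and 254 in tra1D and 371, 359 and 296 in WT, with ratios of 0.748 in tra1-AA (0.679 to 0.824) and 0.872 in tra1D (0.794 to 0.957). With genes at 0 in a group again set to the limit of 3 counts, the median log2 ratio of tra1-AA to WT was -0.51 over 28 end genes and -0.22 over 86 others. For tra1D over WT the median was 0.145 in both classes. The 19 end genes without a copy gave 0.825 in tra1-AA (0.648 to 1.05) and 1.10 in tra1D (0.879 to 1.37), and their libraries overlapped. The 117 low-count genes without a copy gave 0.744 in tra1-AA (0.678 to 0.816) and 0.889 in tra1D (0.813 to 0.971).

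**Figure D5:**
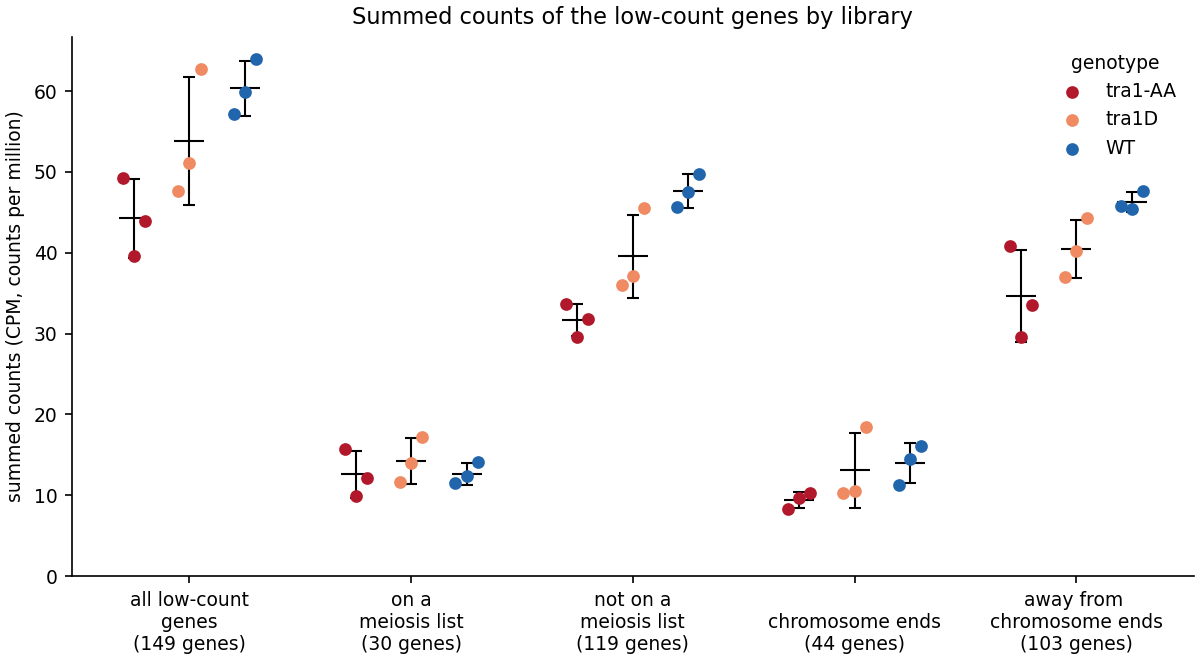
Summed counts of the low-count genes in CPM (vertical axis) in each library (points) with mean and SD (bars, n = 3), for all 149 genes and for 4 classes, with tra1-AA, tra1D and WT from left to right in each. All tra1-AA points lie below all WT points for the 149 genes and for every class but the 30 meiotic genes. For the 30 meiotic genes the 3 genotypes overlap.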

How the data were processed

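The starting point was the authors' deposited table of read counts per gene, which are not normalised. Per the labels' protocols, poly(A) RNA was made into stranded libraries, and reads were single-end. Per the submitters' processing notes, bcl2fastq, HISAT2 2.1.0, HTSeq 0.9.1 and DESeq2 1.18.1 were used. No source used here names the genome build, the annotation, the strand setting or the treatment of reads with several matches. The authors' deposited tables for each mutant against WT also give log2 fold changes with log2 standard errors, the Wald score and p-values with adjusted p-values, of which the adjusted p-values and directions were used. Per-sample columns left unused numbered 0.

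The low-count genes were those with a summed count of at least 1 and fewer than 3 libraries with 10 or more. The genes and the 12 lists were chosen with earlier results of these data known. Names came from RefSeq ASM294v3 by gene ID: 5111 IDs matched by locus tag, 3 by an older ID and 15 not at all, and 7 list names were not found. Named genes were those that passed, the 20 with the largest sums, the 8 highest and 8 lowest ratios of genes with a sum of at least 20 in each mutant, up to 5 per list and the 5 nearest the cut on each side. A few others were added after their values were seen: ost5, fex1, yip12, shu1, rem1, mde3, spo4, SPAC186.02c, SPAC2H10.04, SPAPB1A11.03 and cuf2. The 9 printed windows were likewise picked with the values known. Also added were the neighbours of pdc102 and of SPAPB1A11.02, pdc101, yip11, fex2, the genes at 0 and the regulators outside the low-count genes.

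The test was edgeR 4.0.16 (R 4.3.3), a quasi-likelihood fit of genotype over all 9 libraries with TMM factors and Benjamini-Hochberg adjustment at 0.05 over 5063 genes. A filter would have removed all but 1 low-count gene. Deviations of same-numbered tra1-AA and WT libraries from their group means correlated at 0.109, 0.357 and 0.215. Those with different numbers correlated at -0.351 to 0.085. Because the deviations are from group means, positive values for same numbers go with lower values for the others. The labels do not state a pairing, so pairing by number was not settled and the main fit leaves it out. A fit with the number as a block was an alternative. Replicates were not copies of each other. BLAST 2.17.0 found near-identical copies (98% identity over 50 bases or more, 10% of the coding sequence). Python 3.11.15, pandas 2.3.3, scipy 1.17.1 and matplotlib 3.10.9 served the rest, and alternatives included DESeq2 1.42.0.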

Additional observations from a re-analysis of the deposited data

How the results depend on the processing

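pdc102 was called lower in tra1-AA in every alternative that tested it, and the filter on low counts leaves it out. SPAPB1A11.02 was called with RLE factors, the replicate block, DESeq2 and without WT replicate 3, and was not called with library totals alone (edgeR, BH-adjusted p = 0.0507) or without any other library. Low-count genes called in tra1-AA against WT numbered 2. They were 0 with the low-count filter, which tests 1 of the 149, 1 with library totals alone, 3 with the replicate block (ftm4 added) and 1 to 2 without 1 replicate, where ftm4 (without WT replicate 1), tom6 (without tra1D replicate 3), SPAC186.02c (without tra1-AA replicate 1) and SPBC713.14c (without tra1-AA replicate 3) were also called. In tra1D against WT they numbered 0, but 1 with library totals alone (meu15) and 0 to 2 without 1 replicate: ftm4 without WT replicate 1, SPAPB1A11.02 without WT replicate 3, and spn6 and SPBC1347.14c without tra1D replicate 1. Over all genes the calls without 1 replicate ranged from 371 to 835 in tra1-AA (778 with all) and from 281 to 653 in tra1D (558 with all). In tra1-AA against tra1D, 2 genes were called, 4 by DESeq2 and 2 to 5 without 1 replicate. With the replicate block the 3 comparisons called 720, 506 and 3 genes. The block changed no call of a low-count gene other than ftm4. Same-numbered tra1D libraries correlated at -0.116 to -0.01 with WT and at -0.203 to -0.017 with tra1-AA, so the numbers were not shown to pair these. The log2 ratio of the summed low-count genes kept its sign in every alternative, from -0.53 to -0.36 in tra1-AA and from -0.28 to -0.09 in tra1D. The rule itself gave 107 genes at 5 counts, 220 at 20 counts and 151 with scaled counts. Leaving out the 2 called genes was chosen after seeing the data. Of 1485 values of single named genes under the alternatives, 1419 were close to the reported ones, 49 moved, 9 lost a call and 8 gained one. At these counts a gene needs a large change to pass.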
